A study of Homo sapiens with 9 samples.

Results

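The baseline transcriptome of LAN5 cells that received the control siRNA siCTR was described from the 3 siCTR libraries of a series of 9. The libraries were chosen by the siRNA named in their labels, and no value of a knockdown library was used. LAN5 is an established human neuroblastoma cell line that carries amplified MYCN, and the series was made to study genes regulated by HAND2 and MYCN. The other libraries, 3 with siMYCN and 3 with siHAND2, were not analysed here. All 3 groups share the line and the handling. The siRNAs were delivered by Nucleofector electroporation, the cells were then grown for 72 h in RPMI medium with fetal calf serum, and total RNA was taken for Illumina sequencing. Whether the libraries were made by poly(A) selection or by removal of ribosomal RNA is not given in the sources used here. Untransfected LAN5 cells were not analysed here, so the levels are those of electroporated cells of 1 line. The labels number the replicates 1 to 3 without saying whether they were separate cultures, and their spread may therefore be technical.

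Neuroblastoma arises from sympathoadrenal cells of the neural crest. Most neuroblastoma cell lines hold a noradrenergic state, which is maintained by a set of mutually supporting transcription factors that includes HAND2, GATA3 and ISL1, and which is marked by genes of catecholamine synthesis and of secretory granules. A second, mesenchymal state resembles neural crest precursors and is marked by factors such as PRRX1, the SNAI, TWIST and ZEB repressors, AP-1 subunits and extracellular matrix genes. The MYCN protein pairs with MAX on E-box DNA and is known to raise the genes of ribosome production and cell growth.

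The deposited values are CPM, reads per 1000000 assigned reads, for 25084 genes, of which 14923 are annotated as protein-coding. The smallest step between values put the assigned reads at 32.7, 26.7 and 21.1 M in replicates 1, 2 and 3. A value of 3 reads, used here as the floor of measurement, corresponds to 0.0918, 0.112 and 0.142 CPM. For a gene at 1 CPM, the coefficient of variation expected from counting was 17.5%, 19.4% and 21.8%. These limits cover counting error only. A gene is called detected here when it reached 1 CPM in all 3 libraries. Since a long transcript gives more reads, levels of different genes are compared in CPM per kb of merged exons, or of the canonical transcript where stated, which was possible for 18753 genes. Values given in CPM alone are levels of single genes and set no order among genes unless CPM is named as the scale. In 25 of 32 lists the same gene led by merged exons and by canonical transcript, and elsewhere the order depends on the length used. Errors written ± are SDs over the 3 libraries (n = 3). One group of libraries holds no contrast, so no test was made and every statement is a description.

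Of the 25084 genes, 13600 (54.2%) were detected. Among protein-coding genes 11774 (78.9%) were detected. A level of 10 CPM in all 3 libraries was reached by 9501 genes (37.9%), 100 CPM by 1873 genes (7.47%), and 1000 CPM by 60 genes (0.239%). At the other end, 2721 genes (10.8%) stayed under the value of 3 reads in each library, among them 607 protein-coding genes (4.07% of these). Over the 18753 genes with an exon length the median was 2.12 CPM per kb. Over the 14886 protein-coding genes among them it was 3.50 CPM per kb. The reads were unevenly divided: 50% of the CPM belonged to 701, 678 and 692 genes in replicates 1, 2 and 3, and 90% to between 5730 and 5753 genes. The libraries ranked their genes alike. The same 20 genes were the 20 highest by CPM in each library, and 96 of the 100 highest and 967 of the 1000 highest were shared by all 3.

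**Figure D1:**
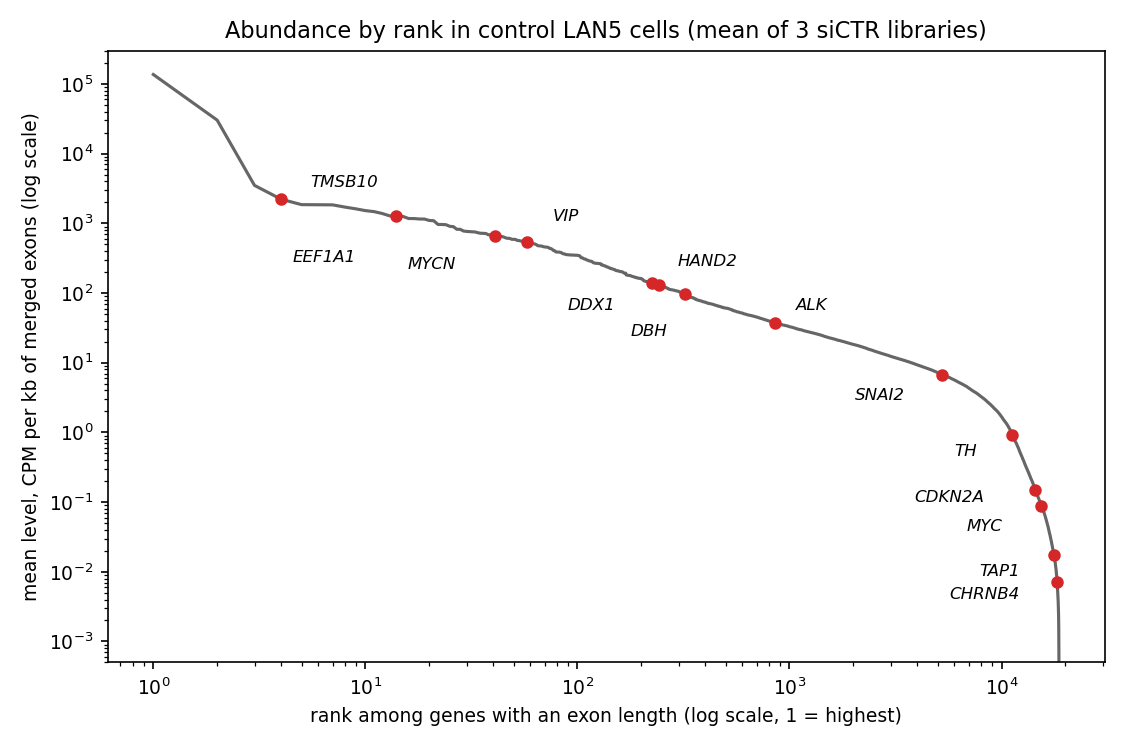
Mean level over the 3 siCTR libraries, in CPM per kb of merged exons on a log axis, against the rank among the 18753 genes with an exon length, also on a log axis. Red points mark named genes: MYCN (rank 41) and VIP (rank 58) lie near the upper end with TMSB10 and EEF1A1, whereas TH, MYC, CDKN2A, TAP1 and CHRNB4 lie on the steep lower end.

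The highest values of the table belonged to short noncoding RNAs made by RNA polymerase III. RN7SL1, an RNA of the signal recognition particle that guides secreted proteins to the endoplasmic reticulum, had 42593, 44014 and 44407 CPM in replicates 1, 2 and 3. Its near-identical copy RN7SL2 had 39646, 40612 and 41659 CPM. The division of reads between these copies is uncertain, but their sum was 8.43% ± 0.193 of each library. RN7SK, the RNA that holds the elongation factor P-TEFb inactive, stood at 20618 ± 960 CPM. A second row, AL162581.1, overlaps RN7SK on the same strand and was listed at 20587 ± 953 CPM, and how the authors' counting treated such overlaps is not stated. RMRP, the RNA of RNase MRP, had 8004 ± 187 CPM and RPPH1, the RNA of RNase P, had 6650 ± 105 CPM. In all, 259 genes of small structured RNAs, recognised by name, held 12.4% ± 0.232 of the CPM. That share leaves out AL162581.1, whose name does not mark it as a small RNA. Protein-coding genes held 83.2% ± 0.355 and long noncoding RNA genes 1.05% ± 0.0169, with MALAT1 at 1084 ± 77.8 CPM.

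Histone genes stood out among the protein-coding genes. The 62 replication-dependent histone genes, which cells transcribe in S phase and whose messages end in a stem-loop in place of a poly(A) tail, held 2.13% ± 0.0375 of the CPM. Of these genes 60 were detected, against 78.9% of all protein-coding genes, and their median was 473 CPM per kb. The share was spread over the classes of histone: 0.363% in H1 genes, 0.433% in H2A, 0.442% in H2B, 0.405% in H3 and 0.484% in H4 genes. H4C5 had 741, 770 and 784 CPM in replicates 1, 2 and 3 (1857 ± 53.2 CPM per kb). H1-2, a linker histone gene, had 1182, 1162 and 1202 CPM (1617 ± 27.4 CPM per kb). H3C2 had 733, 750 and 775 CPM (1473 ± 41.5 CPM per kb). Since histone genes of one class are near-identical in their coding parts, the division of reads among single copies is uncertain.

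By CPM per kb, 15 of the 20 highest protein-coding genes of the nuclear genome were histone genes: H4C5, H4C3, H1-2, H4C12, H3C2, H4C4, H1-5, H3C3, H1-4, H4C11, H2AC11, H2AC14, H3C8, H2AC8 and H2BC12. Among the others were TMSB10, GAPDH, EEF1A1 and EEF1G. TMSB10, which binds actin monomers, led with 994, 1043 and 1039 CPM (2224 ± 59.5 CPM per kb). GAPDH, the glycolytic dehydrogenase, stood at 1385 ± 37.1 CPM per kb, and the translation elongation factors EEF1A1 and EEF1G at 1261 ± 36.5 and 907 ± 23.2 CPM per kb. This order depends on how length is counted, because merged exons of a gene with many transcript forms are much longer than its usual transcript. With the length of the canonical transcript, 4 of the 20 highest were histone genes (H4C5, H4C14, H4C3 and H1-2), and EEF1A1 led at 3612 CPM per kb, followed by RPS24 at 2615 and GAPDH at 2583.

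Promoters were examined in the RefSeq windows of 250 bases before the start (GRCh38.p14) of 10279 protein-coding genes whose start in the deposited table lay within 1000 bp of the RefSeq start. The histone promoters are shown because a TATA box and a CCAAT box recur among these abundant genes. The 3 printed were chosen, in order of level per length, for holding both motifs in the last 100 bases. The 100 bases before the start of 3 histone genes read as follows, 5′ to 3′ on the strand of the gene, with CCAAT and TATAAA on that strand in capitals. They lie at chr6:26032100-26032199 (minus strand), chr6:26156229-26156328 (plus strand) and chr6:27132943-27133042 (plus strand).
H3C2: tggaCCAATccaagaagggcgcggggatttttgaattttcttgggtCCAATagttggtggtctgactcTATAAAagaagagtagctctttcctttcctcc
H1-4: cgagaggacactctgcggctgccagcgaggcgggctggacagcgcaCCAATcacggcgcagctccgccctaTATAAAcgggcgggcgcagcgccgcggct
H2AC11: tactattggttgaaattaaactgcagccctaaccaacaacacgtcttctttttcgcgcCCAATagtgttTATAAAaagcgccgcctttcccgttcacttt
The TATAAA begins 32 bases before the start in H3C2, 29 in H1-4 and 31 in H2AC11. Searched on both strands of the 250 bases, TATAAA was found in 36 of 53 histone promoters against 6.03% of all 10279, and CCAAT in 45 of 53 against 35.0%. Across levels, TATAAA was found in 11.2% of the 1868 promoters of genes that were not detected. It was found in 4.36% of 5761 promoters of detected genes under 10 CPM per kb and in 4.40% of 2452 promoters from 10 to 100 CPM per kb. At 100 CPM per kb or more it was found in 26.3% of 198 promoters, and in 12.5% of 152 when the histone genes were left out. The E-box CACGTG was in 8.78% of all promoters and in 0 of 53 histone promoters. The histone windows had a median of 42.8% G and C and 9 CG dinucleotides, against 64.8% and 20 over all windows. The part of base composition in these motif shares was not tested. All of them are matches of letters, not measured binding.

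All 78 genes of ribosomal proteins were detected, beside 78.9% of protein-coding genes. Together they held 6.30% ± 0.164 of the CPM, with a median of 213 CPM per kb. The 19 genes of the mitochondrial genome in the table held 0.812% ± 0.0118. Within that genome the levels were uneven. MT-CO3 and MT-CO1, subunits of cytochrome oxidase, stood at 3506 ± 77.1 and 1849 ± 39.3 CPM per kb. MT-CO2, the next subunit of that enzyme, stood at 1155 ± 10.3 CPM per kb. MT-ND1, MT-ND2 and MT-ND5, subunits of complex I, stood at 63.6 ± 1.16, 50.8 ± 1.22 and 54.3 ± 4.29 CPM per kb, each below all 3 cytochrome oxidase subunits in every library. Mitochondrial genes have near-identical nuclear copies, so their counts depend on how reads with several matches were treated, which is not stated.

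MYCN was among the most abundant messages of the cells. It had 1848, 1894 and 1786 CPM in replicates 1, 2 and 3 (1842 ± 54.2), which was rank 23 by CPM in the mean. Per length it stood at 669 ± 19.7 CPM per kb, rank 41 of 18753, and the highest library was 1.06 times the lowest. The MYCN row lies at chr2:15940550-15947007 on the plus strand (GRCh38). Its relatives were far lower. MYC had 0.642, 0.374 and 0.617 CPM, under 1 CPM in each library, and MYCL had 1.80, 2.24 and 1.28 CPM. MYCN made up 99.9% ± 0.0100 of the summed CPM per kb of these 3 genes. MAX, the obligate partner of all MYC proteins, stood at 42.2 ± 1.55 CPM and 6.75 ± 0.248 CPM per kb. Of the antagonists that also pair with MAX, MXI1 stood above it at 15.5 CPM per kb. MXD3, MXD4, MGA, MXD1 and MNT stood between 1.59 and 4.85 CPM per kb, though by canonical transcript MXD3 was at 21.6 beside 21.0 for MAX. In the MYC family network 11 of 12 genes were detected (91.7%, beside 78.9% of protein-coding genes). The median of the 12 was 4.41 CPM per kb, and MLX stood at 11.3 CPM per kb.

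Genes beside MYCN on the short arm of chromosome 2 differed widely in level. DDX1, an RNA helicase gene that is often amplified together with MYCN, had 1330, 1333 and 1338 CPM. With canonical transcript lengths DDX1 stood at 537 and MYCN at 705 CPM per kb, and with merged exons DDX1 stood at 132 ± 0.406 CPM per kb. The difference comes from the 10125 bases of merged exons of DDX1 in the annotation. By merged exons NBAS, the next gene beyond DDX1, stood at 9.02 ± 0.126 and TRIB2, further towards the end of the arm, at 61.3 ± 2.70 CPM per kb. CYRIA, on the other side of MYCN, had 0.489, 0.487 and 0.380 CPM, under 1 CPM in each library (0.0829 CPM per kb). MYCNOS, the antisense gene that overlaps the first part of MYCN, was listed at 45.7 ± 0.299 CPM. Use of strand in the counting is not stated, so reads of MYCN and MYCNOS cannot be told apart where they overlap. DNA copy number was not analysed here.

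The noradrenergic regulators were abundant as a group. Of 20 listed factors 18 were detected, against 78.9% of protein-coding genes, and 10 reached 100 CPM in all 3 libraries. Their median was 19.2 CPM per kb, beside 3.50 over protein-coding genes. HAND2, a basic helix-loop-helix factor of sympathetic development, led with 516, 499 and 489 CPM (139 ± 3.81 CPM per kb, rank 225). Its row lies at chr4:173524969-173530229 on the minus strand (GRCh38). The related HAND1 had 17.6, 17.9 and 16.5 CPM (10.2 ± 0.420 CPM per kb), and HAND2 stood 13.7 ± 0.409 times higher per length within the libraries. HAND2-AS1, the antisense gene that begins within HAND2, was listed at 293 ± 14.9 CPM, with the same limit of strand as MYCNOS.

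PHOX2A, a homeodomain factor of the sympathetic lineage, had 89.2, 90.8 and 85.7 CPM (49.7 ± 1.45 CPM per kb). SOX4 and ISL1 stood at 71.8 and 71.7 CPM per kb. SOX11, an SRY-box factor of immature neurons, had the highest CPM of the list, 544 ± 30.8, but stood at 60.4 ± 3.42 CPM per kb because its transcript is long. The zinc finger factors GATA3 and GATA2 stood at 28.8 ± 1.52 and 26.9 ± 1.70 CPM per kb. LMO3 was barely detected at 1.57 CPM. INSM1 and EYA1 were under 1 CPM in each library, at 0.336 and 0.261 CPM. Fewer cells that express a gene and less RNA per cell cannot be told apart in these bulk samples.

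The genes of catecholamine synthesis were unevenly expressed. Of 12 listed genes 9 were detected, a share of 75% near the 78.9% of protein-coding genes, and the median was 1.99 CPM per kb. DBH, which turns dopamine into noradrenaline, had 270, 277 and 243 CPM (95.9 ± 6.62 CPM per kb). DDC, the decarboxylase that makes dopamine, had 131, 134 and 130 CPM (42.6 ± 0.670 CPM per kb). MAOA, which degrades catecholamines, had 350, 358 and 331 CPM (26.6 ± 1.09 CPM per kb). GCH1, which starts the synthesis of the cofactor of tyrosine hydroxylase, stood at 13.8 ± 0.533 CPM per kb. TH, the tyrosine hydroxylase that catalyses the first and rate-limiting step, was far below these, with 2.78, 3.37 and 2.71 CPM (0.928 ± 0.114 CPM per kb). Per length, DBH was 104 ± 8.55 times and DDC 46.3 ± 4.67 times the level of TH within the libraries by merged exons, and 59.4 and 40.4 times by canonical transcript. The noradrenaline transporter SLC6A2 had 24.5 ± 2.21 CPM. The vesicular monoamine transporters SLC18A1 and SLC18A2 had 1.36 ± 0.148 and 0.394 ± 0.00502 CPM. PNMT, which makes adrenaline, had 0.152 CPM, close to the floor, and MAOB stayed under 3 reads in each library.

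Secretory granule genes and neuropeptides were led by VIP. Of 20 listed genes 13 had a row in the table, 10 of these were detected (76.9%, near the share of all protein-coding genes), and the median was 26.6 CPM per kb. VIP, the vasoactive intestinal peptide, had 825, 848 and 900 CPM (541 ± 24.2 CPM per kb, rank 58), the next to highest level per length of all 86 listed noradrenergic and neuronal genes with a row. CHGA, the core protein of dense-core granules, had 384, 380 and 354 CPM (123 ± 5.31 CPM per kb). SCG2 stood at 61.9 ± 1.79 and CHGB at 51.9 ± 4.46 CPM per kb. CPE, the carboxypeptidase that trims propeptides, stood at 35.9 CPM per kb. The convertase PCSK1 was near the floor at 0.0962 CPM, and SCG5, the chaperone of another convertase, had 0.256 CPM. SST, somatostatin, was under 1 CPM in each library at 0.660 CPM. NPY, GAL, PENK, TAC1, CARTPT, CALCA and PCSK2 have no row in the table and were not analysed here.

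The promoters of VIP, CHGA and DBH are shown because these genes led the secretory and catecholamine lists and each holds TGACGT, the core of the cyclic AMP response element, which is in capitals below. They lie at chr6:152750697-152750796 (plus strand), chr14:92923050-92923149 (plus strand) and chr9:133636163-133636362 (plus strand, 200 bases), each ending at the base before the RefSeq start.
VIP: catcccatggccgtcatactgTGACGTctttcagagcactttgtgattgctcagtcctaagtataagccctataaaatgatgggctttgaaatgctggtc
CHGA: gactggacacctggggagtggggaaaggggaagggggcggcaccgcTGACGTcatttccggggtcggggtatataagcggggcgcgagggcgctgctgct
DBH: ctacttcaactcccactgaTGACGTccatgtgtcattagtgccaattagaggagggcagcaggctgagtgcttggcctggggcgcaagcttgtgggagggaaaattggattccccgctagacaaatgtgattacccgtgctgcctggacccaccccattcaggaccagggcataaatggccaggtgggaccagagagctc
The motif begins 79 bases before the start in VIP, 54 in CHGA and 181 in DBH. In CHGA the run continues to the full palindrome TGACGTCA. Across the 250 bases and both strands, TGACGT was in 5 of 10 matched promoters of the secretory list and 2 of 5 of the catecholamine list, against 10.1% of all promoters. The full TGACGTCA was in 4 of the 10, against 2.83% of all.

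All 19 genes of neuronal structure were detected, beside 78.9% of protein-coding genes, with a median of 32.5 CPM per kb. TUBA1A, a tubulin of growing neurons, had 2111, 2204 and 2191 CPM (567 ± 13.2 CPM per kb). UCHL1, a neuronal ubiquitin hydrolase, stood at 127 CPM per kb. The neuronal RNA-binding proteins ELAVL4, ELAVL2 and ELAVL3 stood at 116 ± 2.86, 45.9 ± 0.849 and 17.9 ± 0.241 CPM per kb, and the widely expressed ELAVL1 at 9.12 ± 0.192. NEFM, the medium neurofilament, was the lowest of the list at 6.72 CPM per kb, while NEFL and NEFH stood at 32.5 and 22.7 CPM per kb. The 14 genes of synaptic release with a row were also all detected, at a lower median of 6.75 CPM per kb. The complexin CPLX2 stood at 30.7, the calcium sensor SYT1 at 28.6 and the complexin CPLX1 at 11.7 CPM per kb. By canonical transcript SYT1 came first at 57.5, followed by CPLX2 at 46.9 and SNAP25, a membrane fusion protein, at 33.3 CPM per kb. SNAP25 stood at 3.35 CPM per kb by merged exons. SYN1 was lowest by both lengths, at 1.92 and 2.23 CPM per kb.

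Among cholinergic genes 6 of 8 with a row were detected (75%, near the 78.9% of protein-coding genes). Subunits of nicotinic receptors, which receive the preganglionic signal in sympathetic cells, led the list. CHRNA3 had 107, 105 and 116 CPM (23.0 ± 1.17 CPM per kb), CHRNB2 stood at 11.3 ± 0.617 and CHRNA5 at 10.8 ± 0.282 CPM per kb. CHRNB4, which lies in the same gene cluster as CHRNA3 and CHRNA5, had 0.0307 and 0.0750 CPM in replicates 1 and 2 and was listed at the constant of the table in replicate 3, all under 3 reads. CHRNA7 stood at 8.12 ± 0.209 CPM per kb, with an uncertain share of reads since a partial copy of the gene exists. CHAT, which makes acetylcholine, was under 1 CPM in each library at 0.192 CPM, and its neighbour SLC18A3, the vesicular transporter, had 6.25 CPM.

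**Figure D2:**
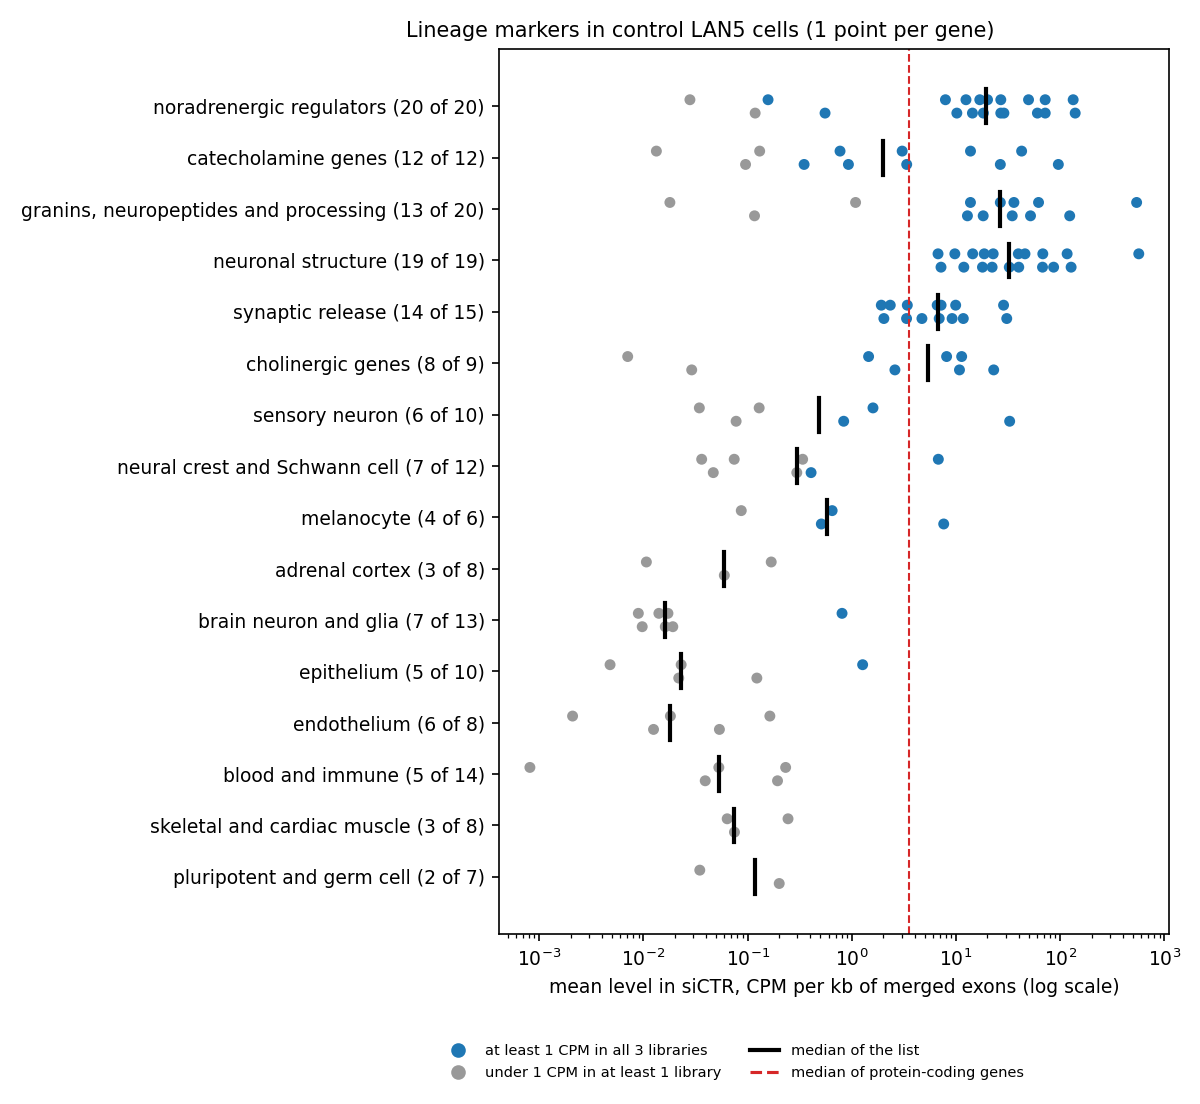
Level of each lineage gene in CPM per kb of merged exons (log axis, mean of the 3 siCTR libraries), with 1 point per gene, blue where it reached 1 CPM in all 3 libraries; labels give genes with a row of genes listed, black bars the list medians and the dashed line the median of protein-coding genes (3.50). The noradrenergic, secretory and neuronal structure lists have medians between 19.2 and 32.5, and the lists of other lineages have medians under 1.

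Markers of other lineages were mostly low. The 11 lists covered sensory, glial, melanocytic, adrenocortical, brain, epithelial, endothelial, blood, muscle, liver and germ cell genes. Of 103 distinct genes 48 had a row. Of these 48, 10 were detected, beside 78.9% of protein-coding genes, and 7 stayed under 3 reads, beside 4.07%. Their median was 0.0744 CPM per kb. The 86 genes with a row in the noradrenergic and neuronal lists had a median of 13.8 CPM per kb, and 76 of them were detected. The 10 exceptions were as follows. TLX2, a homeobox gene of enteric and sympathetic neurons, had 93.2, 83.4 and 99.2 CPM (32.7 ± 2.84 CPM per kb). PMEL, a melanosome protein, had 28.3, 29.6 and 26.1 CPM (7.62 ± 0.478 CPM per kb), while MITF and DCT of that lineage had 3.79 and 4.88 CPM and MLANA 0.261 CPM. SNAI2, a neural crest repressor, had 22.2 ± 3.02 CPM and SCN9A, a sodium channel of sensory and sympathetic neurons, 22.3 CPM. NEUROD1 had 6.62 ± 0.301 CPM, TRPV1 4.61, EPCAM 3.09 and NGFR 1.68 ± 0.262 CPM.

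In the Schwann cell list SOX10, its defining regulator, had 0.359 CPM, and ERBB3 and S100B were also under 1 CPM in each library. In the adrenocortical list STAR had 0.749 and CYP21A2 0.169 CPM, and CYP11A1 stayed under 3 reads. In the blood list PTPRC, the pan-leukocyte marker, stood at 0.0126 CPM, CD14 and FCER1G also stayed under 3 reads, CD68 had 0.419 CPM, and CD74 had 1.05 CPM in the mean without reaching 1 CPM in every library. All 6 endothelial genes with a row were under 1 CPM in each library, PECAM1 and CDH5 under 3 reads, with CLDN5 at 0.561, VWF at 0.557 and TEK at 0.0873 CPM. KRT8 and KRT19, keratins of simple epithelia, were listed at 0.0330 and 0.0510 CPM, and CLDN4 and GRHL2 had 0.576 and 0.139 CPM. The brain genes GFAP, AQP4, MBP, SLC17A7 and GAD1 and the muscle genes MYOD1, MYH3 and TNNT1 were under 1 CPM in each library, as were POU5F1 and LIN28A of the germ cell list and POU4F1, PRDM12 and TLX3 of the sensory list. The 7 listed liver genes have no row and were not analysed here.

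Of 19 mesenchymal transcription factors with a row 12 were detected, a share of 63.2% beside 78.9% of protein-coding genes, and the median was 1.46 CPM per kb, beside 19.2 for the noradrenergic regulators. TWIST1, a basic helix-loop-helix factor of mesoderm and neural crest, had 124, 124 and 118 CPM (61.2 ± 1.80 CPM per kb, rank 496). ZEB1, a repressor of epithelial genes, had 142, 139 and 130 CPM (15.9 ± 0.701 CPM per kb), and SNAI2 stood at 6.77 ± 0.919 CPM per kb. NOTCH2 stood at 5.01 ± 0.258 CPM per kb. PRRX1, a core factor of the mesenchymal state, stood at 0.0854 and its relative PRRX2 at 5.72 CPM per kb. RUNX2, SOX9 and WWTR1 were under 1 CPM in each library, at 0.327, 0.383 and 0.116 CPM. Of the AP-1 family, FOSL1 stood at 0.512 and FOSL2 at 4.95 CPM per kb. YAP1, TWIST2, MEOX1 and MEOX2 have no row and were not analysed here.

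The summed level of the noradrenergic regulators was 6.50 ± 0.0480 times that of the mesenchymal transcription factors in CPM per kb. TWIST1 held most of the mesenchymal sum, and without it the ratio was 14.8 ± 0.457. Among 17 mesenchymal effectors with a row 13 were detected (76.5%, near the 78.9% of protein-coding genes), with a median of 1.24 CPM per kb. VIM, the intermediate filament vimentin, had 541, 538 and 496 CPM (101 ± 4.91 CPM per kb). LGALS1, a galectin, stood at 47.8 ± 2.11 and THY1, a surface glycoprotein also found on neurons, at 9.47 CPM per kb. FN1, fibronectin, had 93.0 ± 2.14 CPM. The collagens stood below the median protein-coding gene, with COL5A1 at 0.484, COL3A1 at 0.210, COL1A2 at 0.153 and COL1A1 at 0.0800 CPM per kb. TAGLN and DCN were under 1 CPM in each library, and POSTN stayed under 3 reads.

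All 20 S phase genes and all 20 genes of G2 and mitosis were detected, beside 78.9% of protein-coding genes. The S phase genes had a median of 32.9 CPM per kb and the G2 and mitosis genes a median of 38.3, beside 3.50 over protein-coding genes. PCNA, the sliding clamp of DNA replication, led the former with 319, 316 and 338 CPM (231 ± 8.45 CPM per kb), followed by the helicase subunits MCM7 and MCM3 at 111 and 101 CPM per kb. TOP2A, the topoisomerase that untangles sister chromosomes, led the latter with 1322, 1255 and 1275 CPM (201.4 ± 5.42 CPM per kb). UBE2C, which feeds the anaphase promoting complex, stood at 107 and the kinetochore protein CENPF at 79.6 ± 5.38 CPM per kb. MKI67, the proliferation marker, had 380, 377 and 391 CPM. Such genes peak in part of the cycle, and the libraries do not give the share of cells in each phase.

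CCAAT boxes recur in promoters of mitotic genes. The 100 bases before the start are shown for the 3 highest per length of the 14 matched genes. CCAAT on the strand of the gene, or its reverse complement ATTGG, is in capitals. They lie at chr17:40417897-40417996 (minus strand), chr1:214603095-214603194 (plus strand) and chr5:69167050-69167149 (plus strand).
TOP2A: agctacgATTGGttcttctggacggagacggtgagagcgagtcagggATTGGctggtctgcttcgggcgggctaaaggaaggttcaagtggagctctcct
CENPF: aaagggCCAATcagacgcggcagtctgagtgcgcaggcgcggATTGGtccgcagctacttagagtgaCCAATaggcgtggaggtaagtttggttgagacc
CCNB1: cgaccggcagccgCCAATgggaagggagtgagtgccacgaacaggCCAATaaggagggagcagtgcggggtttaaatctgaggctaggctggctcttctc
TOP2A and CCNB1 each hold 2 matches and CENPF holds 3. In the same 100 bases CDK1, BUB1B, AURKB and CENPE hold 0 and KIF11 and KIF20B hold 1. The other matched mitotic genes hold 2 or 3. Over 250 bases, 12 of 14 matched promoters of the mitotic list held CCAAT on either strand, as did 8 of 16 of the S phase list, against 35.0% of all promoters.

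Entry into the cycle is set by cyclin D with its kinases and by their inhibitors. Of 16 such genes 14 were detected (87.5%, beside 78.9% of protein-coding genes). CCND1, cyclin D1, had 1042, 950 and 991 CPM (209 ± 9.69 CPM per kb) and made up 98.0% ± 0.1295 of the summed CPM per kb of the D cyclins. Its kinases CDK6 and CDK4 stood at 55.7 ± 1.01 and 47.6 CPM per kb. CDKN2A and CDKN2B, which encode inhibitors of these kinases, were under 1 CPM in each library, at 0.580 and 0.2004 CPM. The inhibitors CDKN1B and CDKN2C stood at 21.9 and 11.7 CPM per kb, and RB1, the target of the kinases, at 14.5 CPM per kb.

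The 22 genes listed as MYC targets in ribosome production and metabolism were all detected, beside 78.9% of protein-coding genes. Their median was 69.3 CPM per kb. ENO1, a glycolytic enolase, had 1748, 1816 and 1717 CPM (337 ± 9.72 CPM per kb), LDHA stood at 238 ± 5.65 and the nucleolar protein NPM1 at 210 CPM per kb. ODC1, the first enzyme of polyamine synthesis, stood at 81.0 CPM per kb. The E-box CACGTG was in 4 of 16 matched promoters of this list, against 8.78% of all promoters. It was also in 3 of 16 of the S phase list, 3 of 14 of the mitotic list and 1 of 5 of the catecholamine list. In the secretory list it was in 1 of 10, and in the noradrenergic regulators and neuronal structure lists in 0 of 10 and 0 of 9. Ribosomal protein genes held it in 3 of 58 promoters. By level, it was in 5.56% of 198 promoters at 100 CPM per kb or more. From 10 to 100 CPM per kb it was in 10.2% of 2452. The windows of the MYC target list had a median of 27.5 CG dinucleotides, against 20 over all windows. In the separate list of p53 response genes, PMAIP1, a proapoptotic gene, led by merged exons at 34.3 CPM per kb. MDM2, a ubiquitin ligase gene, had 181, 176 and 188 CPM (21.8 ± 0.703 CPM per kb), and CDKN1A, which encodes an inhibitor of cyclin-dependent kinases, stood at 15.7 CPM per kb.

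**Figure D3:**
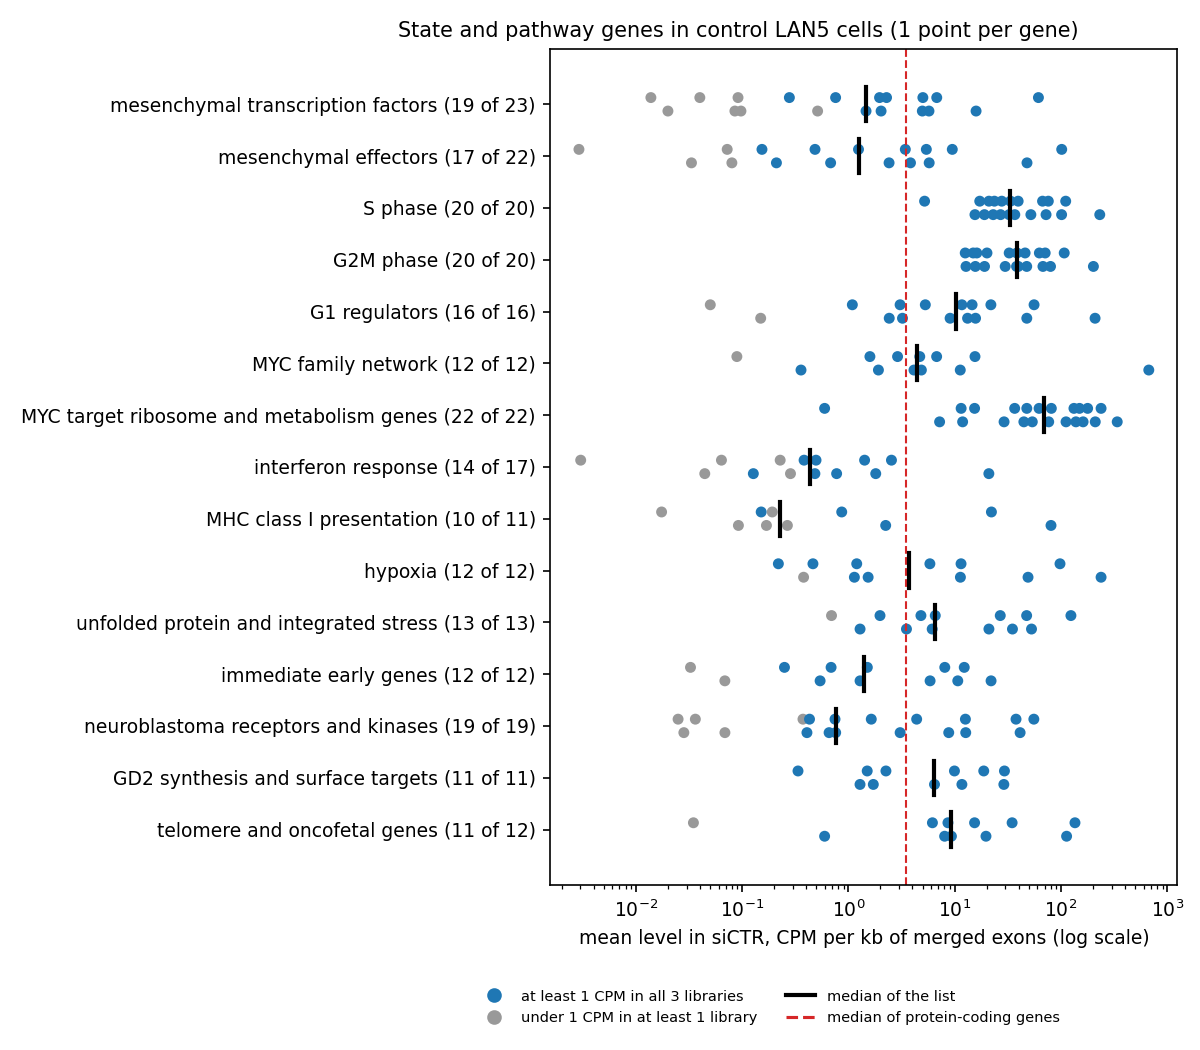
Level of each gene of the state and pathway lists in CPM per kb of merged exons (log axis, mean of the 3 siCTR libraries). The p53 response list is not drawn. The plot is drawn as that of lineage genes, with the median of protein-coding genes (3.50) as a dashed line. The S phase, mitotic and MYC target lists lie wholly or nearly wholly to the right of that line, and the interferon and MHC class I lists have medians of 0.433 and 0.229.

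Most genes of the interferon response were low. Of 14 with a row 9 were detected, a share of 64.3% beside 78.9% of protein-coding genes, and the median was 0.433 CPM per kb. IFI44 was the exception, with 42.2, 43.4 and 42.4 CPM (20.9 ± 0.323 CPM per kb). STAT2 and IFI6 followed at 2.54 and 1.80 CPM per kb. ISG15, IFI27 and MX1, which are strongly induced by interferon in many cells, had 0.247, 0.264 and 0.0544 CPM, the last under 3 reads in each library, and OAS3 and IFIT3 had 0.802 and 1.15 CPM.

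MHC class I presentation was represented by 10 genes with a row, of which 5 were detected (50%, beside 78.9% of protein-coding genes). B2M, the light chain, had 242, 255 and 257 CPM (80.4 ± 2.57 CPM per kb). The heavy chain genes HLA-B, HLA-C and HLA-E had 0.887 ± 0.241, 0.667 ± 0.276 and 0.494 ± 0.229 CPM. These genes are near-identical in part, the listed interval of HLA-B (chr6:31269491-31357188) overlaps that of HLA-C, and reads that differ from the reference may be lost, so the division among heavy chains is uncertain. TAP1, one chain of the peptide transporter, had 0.153 and 0.0950 CPM in replicates 1 and 3 and was listed at the constant in replicate 2. Its partner TAP2 had 8.95 CPM. PSMB8, a subunit of the immunoproteasome, was under 1 CPM in each library at 0.321 CPM. TAPBP stood at 2.24 CPM per kb, and NLRC5, an activator of class I genes, had 1.87 CPM.

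Of the lists of stress and early response genes, hypoxia had a median of 3.68, the unfolded protein and integrated stress response 6.55 and the immediate early genes 1.39 CPM per kb, beside 3.50 over protein-coding genes. In the hypoxia list 11 of 12 were detected (91.7%, beside 78.9% of protein-coding genes). It was led by LDHA at 238, HIF1A at 97.7 and BNIP3 at 48.9 CPM per kb. CA9, a carbonic anhydrase induced strongly by low oxygen, had 0.604 CPM. In the unfolded protein and integrated stress list 12 of 13 were detected (92.3%). ATF4 stood at 124, HSP90B1 at 52.7 and HSPA1B at 47.4 CPM per kb. DDIT3, a marker of prolonged stress, had 4.59 CPM. HSPA1A was listed at 1.66 CPM, but it is near-identical to HSPA1B and the division is uncertain. Of the immediate early genes 10 of 12 were detected (83.3%, near the 78.9% of protein-coding genes). JUND, JUN and JUNB led at 21.9, 12.3 and 10.7 CPM per kb, and FOS and EGR1 had 2.19 and 1.70 CPM. EGR2 and FOSB were under 1 CPM in each library.

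Of 19 receptors and kinases of neuroblastoma 14 were detected (73.7%, near the 78.9% of protein-coding genes), and their median of 0.758 CPM per kb lay below the 3.50 of protein-coding genes. RET, the receptor kinase for GDNF family ligands, had 381, 363 and 365 CPM (41.2 ± 1.09 CPM per kb). Of its coreceptors, GFRA2 had 324, 310 and 327 CPM (55.4 ± 1.52 CPM per kb), GFRA1 0.301 ± 0.112 CPM and GFRA3 0.742 ± 0.153 CPM. GFRA2 made up 99.3% ± 0.137 of the summed CPM per kb of the 3 coreceptors. ALK, a receptor kinase that is activated by mutation or amplification in some neuroblastomas, had 288, 284 and 263 CPM (37.7 ± 1.82 CPM per kb). The platelet-derived growth factor receptors PDGFRA and PDGFRB stood at 12.7 ± 0.470 and 12.6 CPM per kb. The neurotrophin receptor NTRK2 stood at 1.64 ± 0.0737 CPM per kb, and NTRK3 had 0.668 CPM. ERBB3 and LTK were also under 1 CPM in each library.

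All 11 genes of GD2 synthesis and surface targets of antibody or cell therapy were detected, beside 78.9% of protein-coding genes. Their median was 6.44 CPM per kb. GPC2, an oncofetal glypican, had 117, 112 and 108 CPM (29.3 ± 1.22 CPM per kb), the adhesion molecule NCAM1 stood at 28.9 ± 1.40 and CD276, an immune checkpoint ligand, at 18.7 CPM per kb. B4GALNT1, the enzyme that makes GD2 from GD3, had 49.7, 50.2 and 52.7 CPM (6.44 ± 0.204 CPM per kb), and ST8SIA1, which makes GD3, stood at 1.71 CPM per kb. PRAME was lowest at 0.335 CPM per kb.

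Among telomere and oncofetal genes 10 of 11 with a row were detected (90.9%, beside 78.9% of protein-coding genes). TERC, the RNA template of telomerase, had 65.5, 72.9 and 80.9 CPM (135 ± 14.3 CPM per kb), and TERT, its reverse transcriptase, had 3.67, 3.74 and 3.18 CPM. HMGA1, a chromatin protein, stood at 113 and the histone chaperone DAXX at 34.6 CPM per kb. LIN28B, a block to let-7 maturation, had 51.2, 43.9 and 48.1 CPM and made up 99.6% ± 0.0758 of the summed CPM per kb with LIN28A, which had 0.138 CPM. IGF2BP1, an RNA-binding protein of embryonic tissue, had 189 ± 7.56 CPM.

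Genes that are imprinted were not at a common level. H19, a noncoding RNA expressed from the maternal copy, had 779, 785 and 609 CPM, lowest in replicate 3 (209 ± 28.9 CPM per kb). IGF2, its neighbour expressed from the paternal copy, had 2.32, 2.56 and 2.09 CPM (0.325 ± 0.0329 CPM per kb). MEG3 and DLK1, a maternal and a paternal gene of chromosome 14, had 17.1 ± 1.95 and 7.87 ± 0.256 CPM. RGS4 and RGS5, adjacent regulators of G protein signalling, stood at 295 ± 16.8 and 74.4 ± 3.09 CPM per kb. Of the HOX genes with a row, which all lie in the HOXC and HOXD clusters, the highest were HOXD10 at 19.1 ± 0.547 and HOXD8 at 15.8 ± 0.103 CPM per kb. HOXD11, HOXD9 and HOXD13 followed at 10.0 ± 0.630, 8.57 ± 0.259 and 5.58 ± 0.161 CPM per kb. HOXD12, which lies between HOXD13 and HOXD11, stood at 0.274 ± 0.0462 CPM per kb, under 1 CPM in each library.

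**Figure D4:**
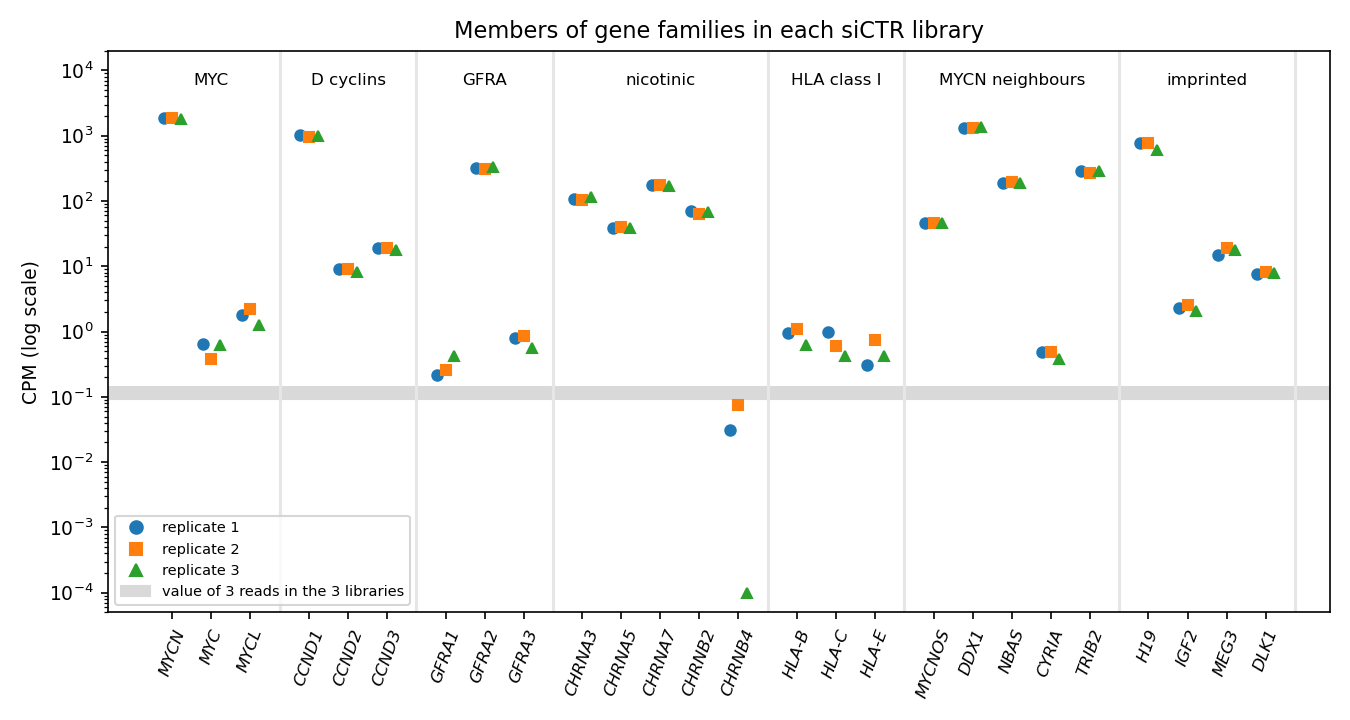
CPM (log axis) of family members and neighbouring genes in each of the 3 siCTR libraries, with 1 marker per library and a grey band at the CPM of 3 reads (0.0918 to 0.142). MYCN, CCND1 and GFRA2 lie far above the other members of their families in all 3 libraries, and CHRNB4 lies under the band.

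Over 9681 genes whose mean reached 10 CPM, Pearson's r of log2 CPM across genes, which are not independent replicates, was between 0.996 and 0.998 for the 3 pairs, and the median difference between libraries was 3.66% to 4.17%. From 1 to 10 CPM the median coefficient of variation was 10.9%, beside 10.8% from counting error alone. From 100 to 1000 CPM it was 2.65% beside 1.51%, and above 1000 CPM 2.68% beside 0.515%. The counting values are expected spreads. If counting alone acted, the median spread of 3 libraries would lie below them. Of 14017 genes whose mean reached 1 CPM, 3430 (24.5%) had a variance of more than 3 times the counting variance, where counting error alone would put 4.98% of genes. That expectation assumes whole reads, whereas 80.5% to 81.5% of low values were whole multiples of a step, so the comparison is approximate. From 1 to 10 CPM the share above 3 times the counting variance was 16.2%. Among the listed genes, 229 had a mean of 10 CPM or more, and the highest library was 1.07 times the lowest in the median. The largest of these ratios was 1.31, in SNAI2.

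Large differences between libraries were rare and mostly in small RNAs. A highest library of at least 1.5 times the lowest was seen in 39 of the 9681 genes (0.403%). They included 21 of 42 small structured RNA genes but 2 of 9291 protein-coding genes, H2AC15 and ID3. In 31 of the 39 genes replicate 1 was highest. These counts are of listed genes, and many of the 39 are copies of the same RNA. RNU2-1 was among 11 genes listed with identical values of 36.8, 34.0 and 23.2 CPM. Copies of RNU1 were listed at nearly the values of RNU1-1, which were 69.4, 61.6 and 41.0 CPM. The 8 largest ratios began with FP236383.4, FP236383.5 and FP671120.7 on chromosome 21, which were listed with identical values of 16.5, 53.5 and 6.07 CPM, a ratio of 8.81. H2AC15 had 14.8, 7.18 and 17.1 CPM and was lowest in replicate 2. RNY3, a Y RNA, had 21.4, 18.3 and 9.59 CPM, and RN7SL4P, a copy of the signal recognition particle RNA, had 184, 228 and 108 CPM. SNORA63 had 22.4, 16.8 and 10.7 CPM and the spliceosomal RNA RNU4-2 had 86.3, 68.0 and 46.8 CPM. SNORD3A, the abundant U3 RNA of ribosome processing, had 1146, 829 and 717 CPM. In RNY3, RN7SL4P, SNORA63, RNU4-2 and SNORD3A replicate 3 was lowest, and it was also the library with the fewest reads. The part of depth in these differences was not tested.

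**Figure D5:**
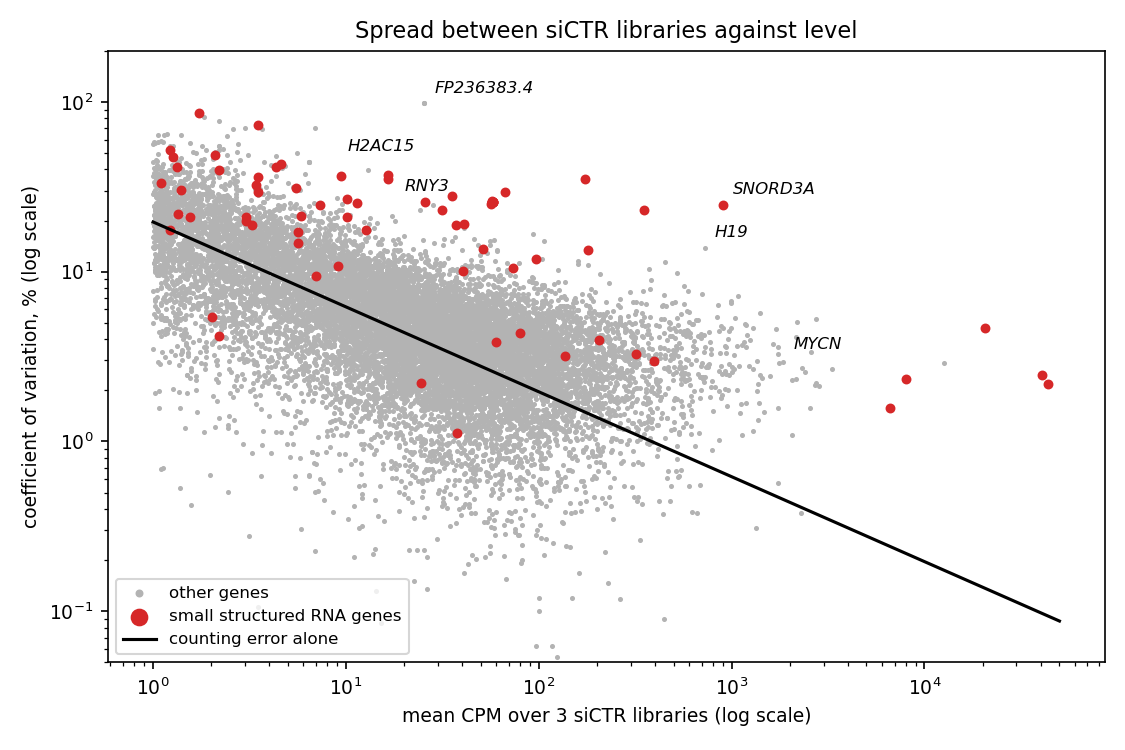
Coefficient of variation over the 3 siCTR libraries (%, log axis) against mean CPM (log axis) for genes whose mean reached 1 CPM, with small structured RNA genes in red and the line that counting error alone would give. The median of all genes is 10.9% from 1 to 10 CPM, where 16.2% of genes have more than 3 times the counting variance. Of 42 small structured RNA genes with at least 10 CPM, 21 reach a highest to lowest ratio of 1.5, several of them copies of the same RNA.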

How the data were processed

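Total RNA of 3 siCTR libraries was analysed as 1 group. The authors deposited 1 table of CPM values per gene and library. Reads were aligned with STAR 2.5.1 and Partek was used, per the submitters' processing notes. The same notes list hg19 (GRCh37), but the positions in the table match GRCh38: of 18215 symbols in the RefSeq gene table all lay on the same chromosome and 91.4% of starts within 5000 bp. Coordinates are therefore given as GRCh38, with the end 1 base before the listed stop. The counting rule, its use of strand and the annotation are not given in the sources used here.

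Every deposited CPM value includes a constant of 0.0001. Assigned reads per library (26.8 ± 5.81 M) were recovered from the smallest step of the values. Since 80.5% to 81.5% of low values were whole multiples within 0.02 of a step, below the 95% needed, no count model was fitted. The counting spreads are expectations for whole reads and serve as description only. The recovery of depth and the spread index were tested on simulated data. CPM per kb used merged exons of GENCODE 44 by gene symbol, without coordinates, with the longest and the canonical transcript as alternatives. Genes sharing identical values with another gene numbered 6266 and held 0.157% of the CPM. The groups of small RNAs, ribosomal proteins and histones were set by symbol. Promoter windows and their positions came from RefSeq (GRCh38.p14), where 13020 genes had an entry.

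The 33 gene lists (446 distinct genes, 368 with a row) and the libraries were chosen with earlier results of these data known. Named were the 20 highest nuclear protein-coding genes per kb, the 5 highest noncoding genes, the mitochondrial genes as a group, the 3 highest members of each list with the members under 1 CPM by name or number, MYCN and HAND2, and the 8 genes with the largest spread at 10 CPM or more. Some genes that this rule names are not reported here. Other genes were chosen after their values were seen. Python 3.11.15 with pandas 2.3.3 and numpy 2.4.6 was used.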

Additional observations from a re-analysis of the deposited data

How the results depend on the processing

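No paired analysis was possible because the libraries form 1 group with no contrast. Of 11 main results, 6 moved by more than the spread between libraries or by over 1.5 times under at least 1 alternative of scale, length, summary, members or libraries. In CPM per kb the 20 highest genes held 49.7% and ribosomal protein genes 5.45% of the total. MYCN ranked 23 by CPM with no length and 94 with the canonical transcript. The median level over all listed genes, 6.60 CPM per kb, was 9.54 with the longest transcript, 10.7 with the canonical transcript and 31.8 with no length, and ran from 6.42, without replicate 3, to 6.65 with 1 library left out. The ratio of noradrenergic to mesenchymal factors was 5.94 with the longest transcript, 5.89 with the canonical transcript, 6.32 with no length, 13.1 from medians and 14.8 without TWIST1. Histone genes among the 20 highest numbered 9 with the longest and 4 with the canonical transcript. The level of DBH over TH was 59.4, that of DDC over TH 40.4 and that of HAND2 over HAND1 17.7 with the canonical transcript. The canonical transcript, the ratio without TWIST1 and the histone alternatives were chosen after seeing the data. Of 32 lists with a level, 15 lay above the median of all genes with a length under each of the 3 lengths. Below about 1 CPM, depth limits what can be said of single genes.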
